A study of Homo sapiens with 8 samples.

Results

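A gene can end its transcripts at more than one poly(A) site, and some sites that the series lists for a gene lie far apart. Whether each listed position is a 3′ end used in these cells was not tested. Described here are the pairs of poly(A) sites in which both sites are named by a genomic position, and not by an annotated transcript, and lie 1000 nt or more apart. Pairs were kept if all 3 tables of comparisons list them. This gave 659 pairs of 401 genes, of 4692 pairs of 2639 genes that all 3 tables list. They are 14.0% of the pairs and 15.2% of the genes. The members contain 963 different sites. RNA 3′ ends had been sequenced with QuantSeq REV, which primes on the poly(A) tail, in 8 samples, 4 groups of 2 replicates each. The cells were the established line MDA-MB-231, human breast cancer cells of the triple-negative kind. All groups carried dCas9-KRAB for CRISPR interference, which represses the gene that a guide RNA points to, and a pair of guides. The guides were both non-targeting in control, HNRNPC-targeting plus non-targeting in HNRNPC knockdown (KD), non-targeting plus PABPC4-targeting in PABPC4 KD, and directed at both genes in double KD. Each table sets 1 KD group against the same control. The measured values in the tables are the authors' own fold changes and p-values, which are not used here, so what follows is the catalogue of sites and where it is listed, without any effect of a KD.

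Cleavage and polyadenylation set the 3′ end of an mRNA. Where several sites lie in the last exon, the choice among them changes the length of the 3′ UTR and leaves the protein as it is. A site in an upstream intron instead ends the transcript early and can remove coding sequence. HNRNPC is a nuclear protein that binds U runs, and PABPC4 is a poly(A)-binding protein, and the study asked how depleting them alters the selection of poly(A) sites.

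The sites of a member were separated by a median of 2444 nt. The middle 50% of pairs lay between 1549 and 4078 nt, and 10% of pairs spanned more than 8612 nt. Under 2000 nt there were 259 pairs in 208 genes, and from 2000 to under 5000 nt there were 279 pairs in 184 genes. A further 59 pairs were under 10000 nt, 51 pairs lay from there to under 100000 nt, and 11 pairs of 7 genes spanned 100000 nt or more. The shortest separations just above the minimum were 1002 nt in AZIN1, which encodes an antizyme inhibitor of polyamine metabolism, and 1015 nt in STX6, a syntaxin of endosomal membrane fusion. The nearest pair below the minimum was 996 nt apart.

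**Figure D1:**
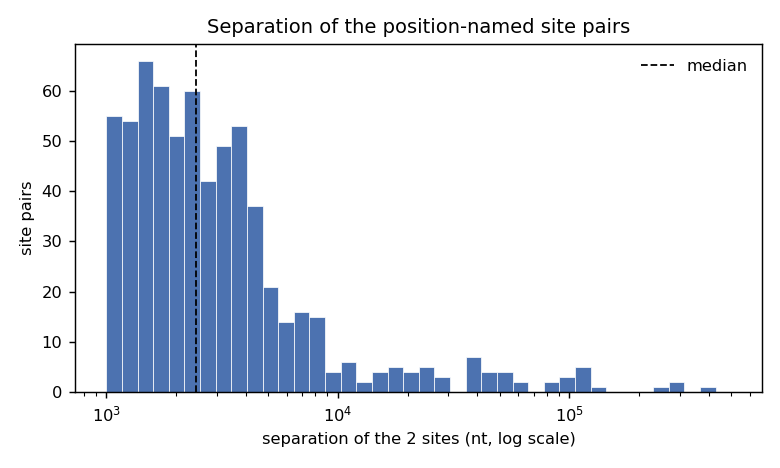
Number of site pairs (vertical axis) by separation of their 2 sites in nt on a log scale (horizontal axis), with the median of 2444 nt as a dashed line. Most of the 659 pairs lie under 5000 nt, and a thin tail reaches 415882 nt.

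The 11 longest pairs belong to 7 genes. ARHGAP26, which encodes a GTPase-activating protein, had the longest pair, with sites 415882 nt apart at 142187841 and 142603723 of chromosome 5, positions as the tables print them. SH3KBP1, an adaptor protein of receptor endocytosis, had 2 pairs of 300056 and 300717 nt that share their proximal site. GNAQ, a G-protein alpha subunit, had a pair of 266531 nt. TRIM44, a TRIM-family protein, had one of 143543 nt. In MYO10, an unconventional myosin of filopodia, the longest of 3 pairs spanned 115222 nt. KIAA0586, a centrosome and cilium gene, had a pair of 104101 nt. SMURF2, an E3 ubiquitin ligase of TGF-β signalling, contributed 4 of the 11. Its single upstream site at 62655635 of chromosome 17 pairs with 4 sites from 114207 to 115745 nt downstream, which lie 403, 528 and 607 nt from one another in turn. The long pairs of SMURF2 and SH3KBP1 thus each rest on 1 shared upstream site.

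Most genes had 1 member pair, and a few had a ladder of sites. There were 281 genes with 1 pair, 55 with 2 pairs, 37 with 3 pairs and 28 with 4 or more, and those 28 genes supplied 157 of the 659 pairs. Pairs of a gene share sites and are not independent: 687 of the 963 sites occur in 1 member, 73 are proximal in one member and distal in another, and no site occurs under 2 genes. Sites between the 2 of a member were sought among pairs that all 3 tables list. In 429 pairs no further position-named site of the gene lay between them, and in 230 pairs at least 1 did.

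CFLAR, which encodes the c-FLIP inhibitor of death-receptor apoptosis, had the most pairs, 10. Its 5 sites lie at 202029033, 202030680, 202032277, 202036459 and 202040383 of chromosome 2, so that neighbours are 1647, 1597, 4182 and 3924 nt apart. Every combination of these sites is a member. CREB1, a cAMP-responsive transcription factor, had 9 pairs over 12638 nt, and its neighbouring sites are 5035, 456, 1265 and 5882 nt apart. C12orf49 also had 9 pairs, over 6179 nt. GGCX, the vitamin K-dependent gamma-carboxylase, had 8 pairs over 3802 nt. SERBP1, an mRNA-binding protein, DNAJC10, a co-chaperone of the endoplasmic reticulum, and CLPB, a mitochondrial disaggregase, had 7 pairs each.

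In SERBP1 the most upstream site stands 16897 nt before a group of 3 sites that are 447 and 438 nt apart, and a last site follows 3936 nt later. In DNAJC10 the 5 sites spread over 3691 nt with no gap above 1367 nt. The genes with many pairs therefore differ in spacing, from gaps of 1597 to 4182 nt in CFLAR to an isolated upstream site in SERBP1.

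**Figure D2:**
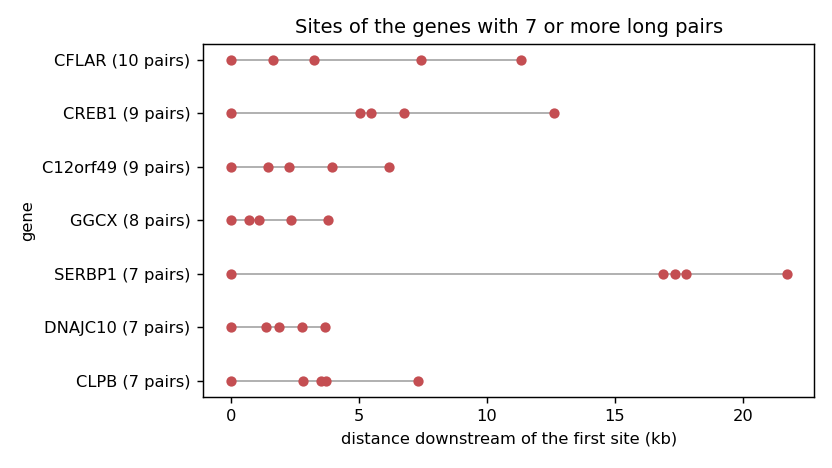
Position-named sites (points) of the 7 genes with 7 or more member pairs, as distance in kb downstream of the first site of each gene. CFLAR has 5 spread sites over 11350 nt, and SERBP1 has 1 site 16897 nt upstream of the rest.

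All 401 genes matched an entry of Gencode release 44 on hg38 by gene ID, and 399 of them are protein-coding. LINC02693, a long non-coding RNA gene, and ZNF271P, a transcribed unitary pseudogene, are the others. The members lie on 23 chromosomes, with 81 on chromosome 1 and 77 on chromosome 2, and 336 are assigned to the plus strand and 323 to the minus strand. Only 132 of the 963 sites (13.7%) fall inside the hg38 span of their own gene, so the positions do not follow hg38, the build that the labels name. The positions are given as they stand, and no sequence was read at them. In NIPA2, a magnesium transporter gene on chromosome 15, the strand column reads plus while both sites of its member are marked minus. It was the 1 member with such a difference. On the strand marked in the sites, the distal site lay downstream in every member.

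The separation can still be set against annotated lengths, which do not need the sites to be placed. For each gene the longest last exon of any Gencode transcript was taken. In 556 pairs of 338 genes (84.4%) the separation was no longer than that exon, with a median separation of 2148 nt. By length alone these sites could lie in one last exon, and whether they do was not tested. In 102 pairs of 73 genes (15.5%) the separation exceeded the longest last exon and was within the span of the gene, with a median of 14592 nt. The sites of such a pair cannot both lie in an annotated last exon of that length. In 1 pair, of AMD1, the decarboxylase of polyamine synthesis, the separation of 56569 nt exceeded the whole gene (chromosome 6, 110874770 to 110898879 on hg38). The median longest last exon was 4826 nt over the 401 genes and 2887 nt over 2234 other genes of the tables that matched. A member has to hold 2 sites far apart, so the rule itself favours long last exons and this difference was not tested.

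The pairs longer than the last exon came from genes of varied function. LDHA, lactate dehydrogenase A, had sites 3601 nt apart against a last exon of 1309 nt. HSP90AA1, the inducible cytosolic HSP90, had pairs of 2998 and 3877 nt against 1080 nt. MYH9, the heavy chain of non-muscle myosin, had a pair of 5959 nt against 1506 nt. In EIF5B, a factor of ribosomal subunit joining, 3 pairs of 7867, 28078 and 35945 nt stood against 2020 nt. ROCK1 and ROCK2, kinases of actomyosin contraction, had single pairs of 43090 and 38196 nt against 6776 and 3682 nt. In these genes at least 1 site of each pair lies outside the longest last exon by length. Other pairs exceeded that exon by little, such as 4048 against 4029 nt in DDX3X and 4402 against 4369 nt in IFT22. Whether the outside site lies upstream or downstream of the exon was not tested.

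**Figure D3:**
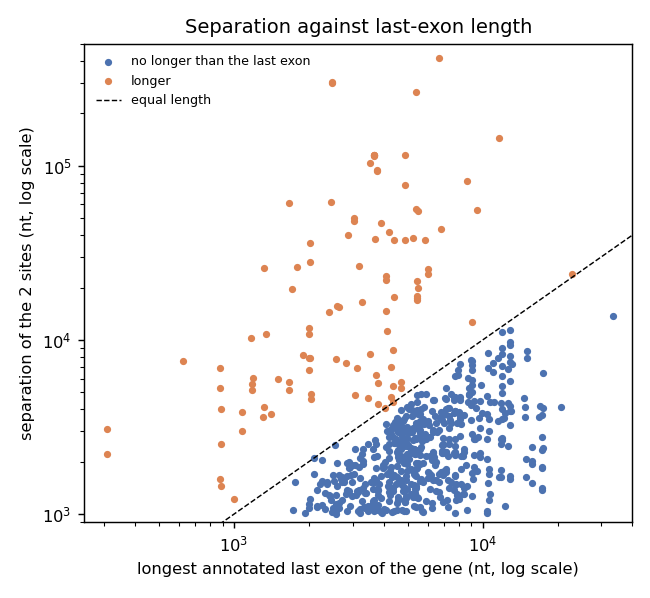
Separation of each pair in nt (vertical axis, log scale) against the longest annotated last exon of its gene in nt (horizontal axis, log scale), each point a pair and the dashed line equal lengths. Of the 659 pairs, 556 lie on or below the line, and the orange points above it reach 415882 nt.

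Of the 401 genes, 254 (63.3%) also have a site named by an annotated transcript in pairs that all tables list, and 147 are represented by position-named sites alone. The names of these ends carry no position, so their place is known only from the tables' columns of proximal and distal sites. In pairs with a member site, the transcript-named end was always given as distal in 191 of the 254 genes and always as proximal in 21, and 42 genes had both. Of the 4692 pairs in all 3 tables, only the 659 members and 361 closer pairs have 2 position-named sites. The same counts were not made for the other genes, so they are not a trait shown to be particular to the members. Member genes had a median of 3 listed sites, with at most 7, against a median of 2 in the other 2238 genes. A gene needs 2 position-named sites to be a member, and 84 genes had no other site in pairs that all tables list. Any listed gene, member or not, has at least 2 sites. A gene with more sites forms more pairs that could pass the rule, and the difference in medians was not tested.

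The genes were grouped by lists of symbol families. The lists follow symbols and leave out some genes of a function, so their counts are partial. SERBP1, given above as an mRNA-binding protein, is in none of them. ZNF271P, given above as a pseudogene, is counted in the list of chromatin and transcription factors. Factors of RNA binding, splicing and 3′ end processing numbered 19 with 34 pairs, which is 4.74% of member genes, where 3.22% of all genes listed in the 3 tables belong to the list. They include HNRNPU, a nuclear matrix and RNA-binding protein, with 5 pairs of 2150 to 5733 nt, and SRSF3, a splicing factor, with 4 pairs of 1038 to 2119 nt. AGO2, the slicer Argonaute that miRNAs guide, features in the study as a repressor of target mRNAs. Its gene had 1 member, with sites 8309 nt apart at 141541403 and 141533094 of chromosome 8, against a last exon of 11997 nt. AGO1, its paralogue, had 2 pairs of 6555 and 7330 nt. ELAVL1, a stabiliser of AU-rich mRNAs, had a pair of 3118 nt.

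Ubiquitin and proteasome genes numbered 24 with 36 pairs (5.99% of member genes, 4.32% of listed genes). MDM2, the E3 ligase of p53, had a pair of 1165 nt, and HUWE1, a large HECT ligase, one of 25917 nt. Genes of vesicle traffic and small GTPases numbered 23 with 36 pairs (5.74% and 4.40%). RAP2B, a small GTPase, had 5 pairs up to 3684 nt, and VPS53, a tethering subunit of endosome-to-Golgi traffic, had 5 pairs up to 3509 nt.

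Kinases and phosphatases numbered 19 with 25 pairs (4.74% of member genes, 3.56% of listed genes). EGFR, a receptor tyrosine kinase, had a pair of 2141 nt. The median separation was 1696 nt in this list and 1755 nt in vesicle traffic, the lowest of the 8 lists. Genes of chromatin and transcription factors formed the largest list, with 30 genes and 49 pairs (7.48% and 7.12%). YAP1 and WWTR1, the paired coactivators of the Hippo pathway, had single pairs of 2532 and 2166 nt.

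The remaining lists were smaller. Cytoskeleton, adhesion and matrix genes numbered 9 with 13 pairs (2.24% of member genes, 2.58% of listed genes). Their median separation, 3638 nt, was the largest of the lists. It counts 3 pairs each of MYO10 (37240 to 115222 nt) and KIF1C (1036 to 3638 nt), and pairs of a gene share sites. ACTR2 and ACTR3, the actin-related subunits of the Arp2/3 complex, had shorter pairs, of 1597 and 1246 nt. Translation and ribosome genes numbered 8 with 13 pairs, of 56 such genes listed (1.995% of member genes, 2.122% of listed genes). Transporters, channels and pumps numbered 11 with 13 pairs, of 75 listed (2.743% and 2.842%). No pair of the transporter list exceeded 4657 nt. The shares of member genes and of listed genes were not tested against each other.

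Whether a pair is listed in every table was compared across separations. Any table listed 1214 position-named pairs 1000 nt or more apart, and of these all 3 tables listed 659 (54.3%), 2 tables listed 218 and 1 table listed 337. Of 632 position-named pairs under 1000 nt apart, all 3 tables listed 361 (57.1%), and of all 7615 pairs 61.6%. By separation, the share in all 3 tables was 55.3% from 1000 to under 2000 nt, 55.8% to under 5000 nt, 52.2% to under 10000 nt and 46.0% to under 100000 nt. At 100000 nt or more, 11 of 22 pairs were in all 3 tables. Pairs share sites, so no test was made of these shares.

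The tables differed in how many pairs they listed, and the order of the tables was the same for long pairs and for all pairs. Of the 1214 long pairs, the table of double KD held 997 (82.1%), that of PABPC4 KD 897 (73.9%) and that of HNRNPC KD 856 (70.5%). Of all 7615 pairs, in the same order, they held 84.8%, 78.2% and 77.0%. Long pairs listed in 1 table alone numbered 178 in double KD (14.7%), 86 in PABPC4 KD (7.08%) and 73 in HNRNPC KD (6.01%), beside 10.5%, 6.08% and 5.07% of all pairs. In 67, 37 and 32 of 654 genes (10.2%, 5.66% and 4.89%) every long pair was in that table alone. Of all 3656 genes, 7.03%, 4.08% and 3.20% had every pair of any kind in that table alone. Some genes with every long pair in 1 table alone had other pairs that all 3 tables list. They numbered 38 of the 67, 25 of the 37 and 19 of the 32. Among all 3656 genes, 2639 had a pair that all 3 tables list. The shares were not tested against each other. Under 1000 nt the double KD table also held the most pairs, 526 against 475 in PABPC4 KD and 480 in HNRNPC KD. The criterion for listing a pair is not given in the sources used here, and depth per sample is not known, so a difference in depth and a difference in site usage between the groups cannot be told apart.

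**Figure D4:**
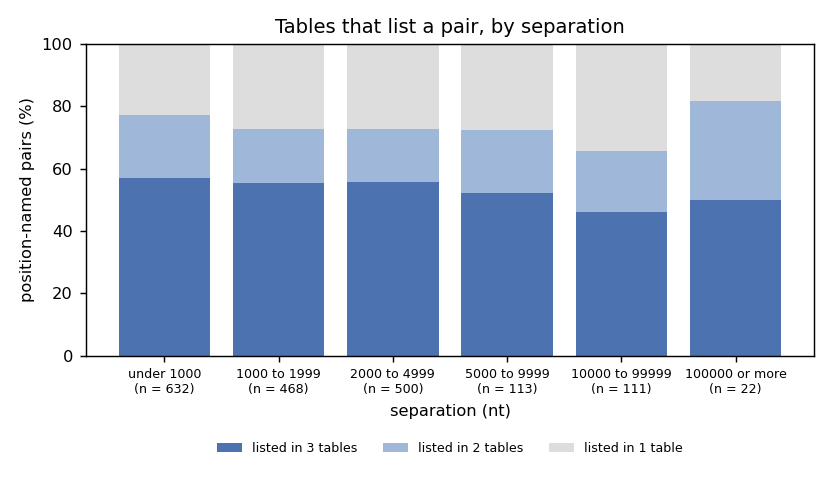
Share of position-named pairs (%, vertical axis) that 3, 2 or 1 of the tables list, by separation in nt (horizontal axis, n pairs per class below each bar). The share listed in all 3 tables lies between 46.0% and 57.1% in every class.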

How the data were processed

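Per the paper's methods, the authors sequenced QuantSeq REV libraries in single-end runs of 50 cycles, counted reads at unique Gencode v33 transcript ends with Salmon 0.14.1, and compared the sites of a gene with APAlog. Those methods describe annotated ends only and do not say how the position-named sites were defined. UMI-tools is also named in the submitters' processing notes. Each deposited table holds identifiers of site pairs and 3 columns of the authors' own comparison (a log fold change of the proximal-to-distal ratio, a p-value and a q-value). These 3 columns are not used here, so the tests planned on them were not run, and the rule for named genes, which ranked pairs by p-value, could not be applied. Genes were named instead after the data were seen, for the longest separations, the most pairs and membership of a list. PABPC4 KD was given its table by elimination, because that table's name combines short forms of both targets. The members and lists were chosen with earlier results of these data known. Separations were the absolute difference of the 2 positions. Gene types, spans and last exons came from Gencode release 44 on hg38. Python 3.11.15 and pandas 2.3.3 were used, and the separation code was tested on made-up pairs. Depth per sample is unknown.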

Additional observations from a re-analysis of the deposited data

How the results depend on the processing

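No paired analysis was possible because the identifiers of site pairs carry no values per sample, and leaving out a replicate was not possible for the same reason. Other thresholds, error models and sizes of the log ratio were not tried, since they need the authors' comparison columns. The alternatives below were chosen after seeing the data. A distance minimum of 2000 nt left 400 pairs and raised the median separation to 3680 nt, both by construction. Taking 1 pair per gene, the most upstream site against the most downstream, left 401 pairs with a median separation of 2698 nt. This choice takes the widest pair of each gene. With a minimum of 500 nt, 879 pairs remained with a median of 1764 nt. The share of pairs no longer than the longest last exon was 75% at 2000 nt, 88.2% at 500 nt and 81.5% with 1 pair per gene. The share listed in all 3 tables was 53.6% at 2000 nt and 55.4% at 500 nt.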
